A study of Arabidopsis thaliana with 30 samples.

Results

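PDC2 (AT5G54960) and AT4G17260 are Arabidopsis genes at the entry points of the 2 classical fermentation routes: PDC2 encodes a pyruvate decarboxylase and AT4G17260 an L-lactate dehydrogenase. They were taken by name as fermentation genes, together with the change of PDC2 between the 2 air controls. They are 2 of the 13350 gene names that have at least 1 probe set tied to that gene alone. Each is read by 1 of the 22746 probe sets tested. As the choice names the PDC2 change between the air controls, which was known from these data, it is described below without a test. The comparisons of PDC2 against air use these same air groups, so their sizes, ranks and p values are not independent of the choice. The material was whole Arabidopsis thaliana seedlings, 7 days old, of the Col-0 line 35S:His6FLAG-RPL18B. All groups carried this single-copy transgene, a tagged ribosomal protein driven by the broadly active viral 35S promoter, which allows ribosomes and the mRNAs on them to be pulled down; no untagged seedlings were among the arrays used. Seedlings were under hypoxia for 2 h, in non-stress conditions for 2 h (the 2 h air control), in recovery for 1 h in air after 9 h of hypoxia, under hypoxia for 9 h, or in non-stress conditions for 9 h (the 9 h air control). From each of the 5 conditions total RNA and immunopurified polysomal RNA were hybridised in 3 independent replicate experiments, which gave 30 arrays in 10 groups of 3. The treatments began as the light period ended, so the air controls also differ in the time since then, and the labels used here give no oxygen level. By the labels, recovered seedlings were 1 h further from the start than the 9 h groups. No air control of that later time was among the arrays, so comparisons of recovery also hold this hour.

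When oxygen is short, respiration cannot reoxidise the NADH that glycolysis makes, and fermentation takes over that role. Lactate dehydrogenase reduces pyruvate to lactate in 1 step and oxidises NADH directly, with acidification of the cytosol as a known cost. Pyruvate decarboxylase turns pyruvate into acetaldehyde and carbon dioxide, and alcohol dehydrogenase then reduces acetaldehyde to ethanol, again oxidising NADH. In plant roots and seedlings both pathways are known parts of the low-oxygen response, and pyruvate decarboxylase is held to be the committed step towards ethanol.

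Values are the deposited log2 signals, and changes are log2 differences with a model standard error (SE) from 3 arrays per group. Rose and fell are used where the adjusted p from limma, corrected over all 22746 probe sets, was under 0.05. Whether the arrays of groups overlapped is a description of these genes only. The share of all probe sets without overlap was not counted. The array means over all probe sets lay between 5.754 and 5.805 in total RNA, and between 4.33 and 5.37 in polysomal RNA. The polysomal group means were 4.536 after 2 h of hypoxia and 5.364 in air at 2 h, and 5.196 after recovery, 4.342 after 9 h of hypoxia and 5.358 in air at 9 h. Among polysomal arrays the hybridisation control probe sets averaged 8.656 under 2 h hypoxia, against 9.477 in the 2 h air control, and 8.643 under 9 h hypoxia, against 9.339 in the 9 h air control. Polysomal changes are therefore given as deposited and also after each array's mean was subtracted. Of the root markers on the total RNA arrays, the beta-glucosidase gene PYK10 lay between 12.018 and 13.503, while the root hair expansin genes EXPA7 and EXPA18 were dim, at 3.771 to 5.815 and 3.615 to 7.007. The shoot marker LHCB4.2, a light-harvesting gene, lay between 10.831 and 12.991. In whole seedlings, a change in the number of cells that hold a message and a change in its amount per cell cannot be told apart.

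PDC2 rose under hypoxia in total RNA at both times. After 2 h its log2 signal was 11.14, 11.26 and 11.00 on the hypoxic arrays, against 8.40, 8.34 and 8.49 in air. All 3 hypoxic arrays lay more than 2 log2 units above all 3 air arrays. The rise was 2.73 ± 0.121 (SE, n = 3 arrays per group), or 6.61-fold, with an adjusted p of 2.31e-15, in a comparison in which 8.2% of probe sets rose. After 9 h the hypoxic arrays stood at 11.62, 11.54 and 11.64, against 6.19, 6.19 and 6.41 in air. The groups were far apart again, and the replicates of each were close together. This rise was 5.33 ± 0.121 (SE, n = 3 arrays per group), or 40.3-fold, with an adjusted p of 4.45e-21, and it was the 24th largest rise among all probe sets. At 9 h 21.3% of probe sets rose. Both rises are measured from the air groups named in the choice of PDC2. Their sizes, ranks and p values are therefore not independent of that choice, above all at 9 h, where the air signal was low.

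AT4G17260 rose as well, by a smaller amount and with a wider spread between arrays. After 2 h its log2 signal was 8.70, 9.57 and 9.30 on the hypoxic arrays, against 6.73, 7.12 and 7.27 in air. The groups did not overlap, although the hypoxic arrays spanned almost 1 log2 unit. The rise was 2.15 ± 0.192 (SE, n = 3 arrays per group), or 4.44-fold, with an adjusted p of 4.84e-09, and was the 138th largest. After 9 h the hypoxic arrays were at 8.47, 8.73 and 8.81, against 5.84, 6.25 and 6.60 in air. Again no array of either group reached the other. The rise was 2.44 ± 0.192 (SE, n = 3 arrays per group), or 5.42-fold, with an adjusted p of 8.4e-11, and was the 236th largest.

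**Figure D1:**
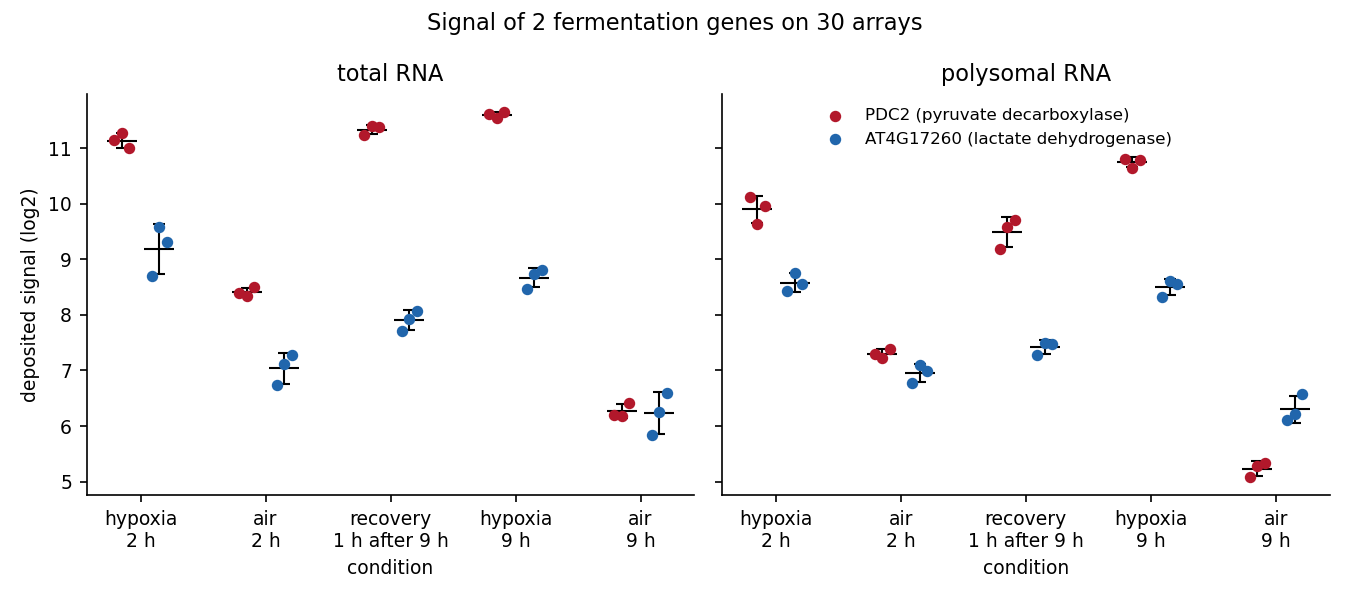
Deposited log2 signal (vertical axis) of PDC2 (red) and AT4G17260 (blue) in the 5 conditions (horizontal axis), in total RNA on the left and polysomal RNA on the right. Each point is 1 array, and bars are the mean and standard deviation of 3 arrays. In total RNA PDC2 stands between 11.00 and 11.64 on the hypoxic and recovered arrays and between 6.19 and 8.49 on the air arrays.

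In air alone the PDC2 signal was much lower at 9 h than at 2 h. Its mean in total RNA was 6.27 ± 0.129 at 9 h of air and 8.41 ± 0.078 at 2 h of air (SD, n = 3 each), a difference of -2.14 ± 0.121 (SE), so that 9 h air seedlings held about 4.42-fold less signal. As the choice of PDC2 named this difference, its rank among all probe sets is not given. In this comparison 4.24% of probe sets fell. The polysomal arrays, made from the same replicate experiments, gave 5.08, 5.29 and 5.33 in air at 9 h, against 7.30, 7.22 and 7.38 in air at 2 h. No array overlapped, and the change was -2.07 ± 0.121 (SE, n = 3 arrays per group; 4.33% of probe sets fell), or 4.19-fold lower. Since the polysomal RNA came from the same experiments as the total RNA, this is a second readout and not an independent set of seedlings.

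AT4G17260 also fell between the air controls, by less. In total RNA its means were 6.23 ± 0.382 at 9 h and 7.04 ± 0.277 at 2 h (SD, n = 3 each), a change of -0.81 ± 0.192 (SE; adjusted p = 0.00707). In polysomal RNA its values were 6.10, 6.22 and 6.57 at 9 h of air, against 6.77, 7.09 and 6.99 at 2 h. The change there was -0.66 ± 0.192 (SE, n = 3 arrays per group; adjusted p = 0.0314). Both calls were lost in some fits that left out arrays, 4 of 9 in total RNA and 6 of 9 in polysomal RNA. With the replicate number as a block both held (limma, adjusted p = 2.79e-05 in total and 0.000401 in polysomal RNA). Without replicate 2 of every group the total change was -0.78 (adjusted p = 0.125) and the polysomal change -0.55 (adjusted p = 0.368); without replicate 3 they were -0.88 (adjusted p = 0.0748) and -0.77 (adjusted p = 0.118).

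For PDC2 the level under hypoxia itself moved far less between 2 h and 9 h than the change against air did. In total RNA PDC2 was higher after 9 h than after 2 h of hypoxia by 0.46 ± 0.121 (SE, n = 3 arrays per group; adjusted p = 0.00393; 13.8% of probe sets rose), with no overlap of arrays. The call was lost without replicate 3 of every group (0.38, adjusted p = 0.111). The change against air was larger at 9 h than at 2 h by 2.61 ± 0.171 (SE from 3 arrays in each of 4 groups), made up of the 0.46 difference between the hypoxic groups less the -2.14 difference between the air controls; as this contains the air-control difference named in the choice of genes, it is given without a test. AT4G17260 ran the other way between the hypoxic groups, at -0.52 ± 0.192 (SE, n = 3 arrays per group; adjusted p = 0.0392; 17.7% of probe sets fell). Its arrays overlapped, and the call was lost in 6 of 9 fits that left out arrays (adjusted p up to 0.382, at -0.36 without replicate 2) and with array medians subtracted (-0.38, adjusted p = 0.103). With the replicate number as a block the AT4G17260 call held (adjusted p = 0.0011). Its change against air at 9 h exceeded that at 2 h by 0.29 ± 0.272 (SE; adjusted p = 0.552), with a 95% interval of -0.27 to 0.85. For this difference 8.12% of probe sets passed upward.

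After 1 h of recovery in air the total message of PDC2 was still far above its air level. The recovered arrays were at 11.24, 11.39 and 11.37, against 11.62, 11.54 and 11.64 after 9 h of hypoxia. Every recovered array lay below every hypoxic array, by a small margin. The difference was -0.27 ± 0.121 (SE, n = 3 arrays per group; adjusted p = 0.122), with a 95% interval of -0.52 to -0.02 before adjustment; with array medians subtracted it was -0.38 (adjusted p = 0.0254), and with only total arrays fitted the adjusted p was 0.0482. AT4G17260 stood at 7.71, 7.93 and 8.08 after recovery, against 8.47, 8.73 and 8.81 after 9 h of hypoxia. It fell by 0.76 ± 0.192 (SE, n = 3 arrays per group; adjusted p = 0.00456; 9.65% of probe sets fell), or 1.7-fold, and the call was lost without replicate 2 (-0.75, adjusted p = 0.0662) or without replicate 3 (-0.78, adjusted p = 0.0539). With the replicate number as a block this call held (adjusted p = 2.62e-05). The air control next to recovery in time is that of 9 h, which by the labels is 1 h earlier. Against the 9 h air control, an array group shared with the hypoxia comparison, recovered seedlings still held 33.5-fold more PDC2 signal (5.07 ± 0.121, adjusted p = 1.59e-20) and 3.19-fold more AT4G17260 signal (1.67 ± 0.192, adjusted p = 7.41e-08; SE, n = 3 arrays per group; 18.2% of probe sets rose).

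In total RNA the order of PDC2 was hypoxia 9 h, recovery, hypoxia 2 h, air 2 h and air 9 h, and of the neighbours in this order the arrays of recovery and hypoxia 2 h overlapped. For AT4G17260 the order was hypoxia 2 h, hypoxia 9 h, recovery, air 2 h and air 9 h, and the arrays of the 2 hypoxic groups overlapped. Both genes had their lowest mean in air at 9 h.

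PDC2 message rose on polysomes too. After 2 h the polysomal arrays were at 10.11, 9.64 and 9.96 under hypoxia, against 7.30, 7.22 and 7.38 in air. The groups were more than 2 log2 units apart. The deposited change was 2.60 ± 0.121 (adjusted p = 9.92e-15; 2.74% of probe sets rose), and 3.43 ± 0.121 with array means subtracted (adjusted p = 1.8e-17; 15.7% rose; SE, n = 3 arrays per group). After 9 h the arrays were at 10.80, 10.64 and 10.79 under hypoxia, against 5.08, 5.29 and 5.33 in air. This was the 10th largest rise of any probe set on either scale. As in total RNA, sizes, ranks and p values against air are not independent of the choice of PDC2. The deposited change was 5.51 ± 0.121, or 45.6-fold (adjusted p = 1.97e-21; 4.53% rose), and 6.53 with array means subtracted, or 92.2-fold (adjusted p = 2.93e-23; 22.6% rose). Between the hypoxic groups PDC2 was higher at 9 h than at 2 h by 0.84 ± 0.121 (adjusted p = 3.84e-06; 7.36% rose), or 1.03 with array means subtracted (adjusted p = 2.39e-07; SE, n = 3 arrays per group; 16% rose).

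AT4G17260 rose on polysomes at both times. After 2 h the arrays were at 8.43, 8.75 and 8.56 under hypoxia, against 6.77, 7.09 and 6.99 in air, a deposited change of 1.63 ± 0.192 (adjusted p = 2.39e-08) and 2.46 with array means subtracted (adjusted p = 2.44e-10; SE, n = 3 arrays per group). After 9 h they were at 8.33, 8.61 and 8.55 under hypoxia, against 6.10, 6.22 and 6.57 in air. No arrays overlapped at either time. The 9 h change was 2.2 ± 0.192 as deposited (adjusted p = 7.89e-11) and 3.22 with array means subtracted (adjusted p = 4.26e-13). Between the hypoxic groups the arrays overlapped, and the difference, 9 h against 2 h, was -0.08 ± 0.192 (SE, n = 3 arrays per group; adjusted p = 0.778; 95% interval -0.48 to 0.31), or 0.11 with array means subtracted (adjusted p = 0.688). The polysomal change against air was larger at 9 h than at 2 h by 2.91 ± 0.171 for PDC2, given without a test since it contains the air-control difference, and by 0.57 ± 0.272 for AT4G17260 (adjusted p = 0.137, or 0.0122 with the replicate number as a block; 4.84% passed upward; SE from 3 arrays in each of 4 groups). With array means subtracted these were 3.09 for PDC2 and 0.76 for AT4G17260 (adjusted p = 0.045; 9.14% upward).

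Both messages fell on polysomes within 1 h of recovery. PDC2 stood at 9.18, 9.58 and 9.71 after recovery, against 10.80, 10.64 and 10.79 after 9 h of hypoxia. All recovered arrays were lower. The deposited change was -1.25 ± 0.121 (adjusted p = 8.94e-10; 2.5% of probe sets fell), and -2.11 with array means subtracted (adjusted p = 1.23e-12; 18.1% fell), the 63rd largest fall on either scale. AT4G17260 was at 7.28, 7.49 and 7.48 after recovery, against 8.33, 8.61 and 8.55 after 9 h of hypoxia. Its deposited change was -1.08 ± 0.192 (adjusted p = 1.18e-05), and -1.93 with array means subtracted (adjusted p = 7.33e-09; SE, n = 3 arrays per group). Against the 9 h air control both were still high after recovery, PDC2 by 4.26 ± 0.121 (adjusted p = 1.22e-18; 12.1% rose) and AT4G17260 by 1.12 ± 0.192 (adjusted p = 3e-05), or 4.42 and 1.28 with array means subtracted (adjusted p = 4.96e-19 and 4.42e-06; 17.1% rose).

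**Figure D2:**
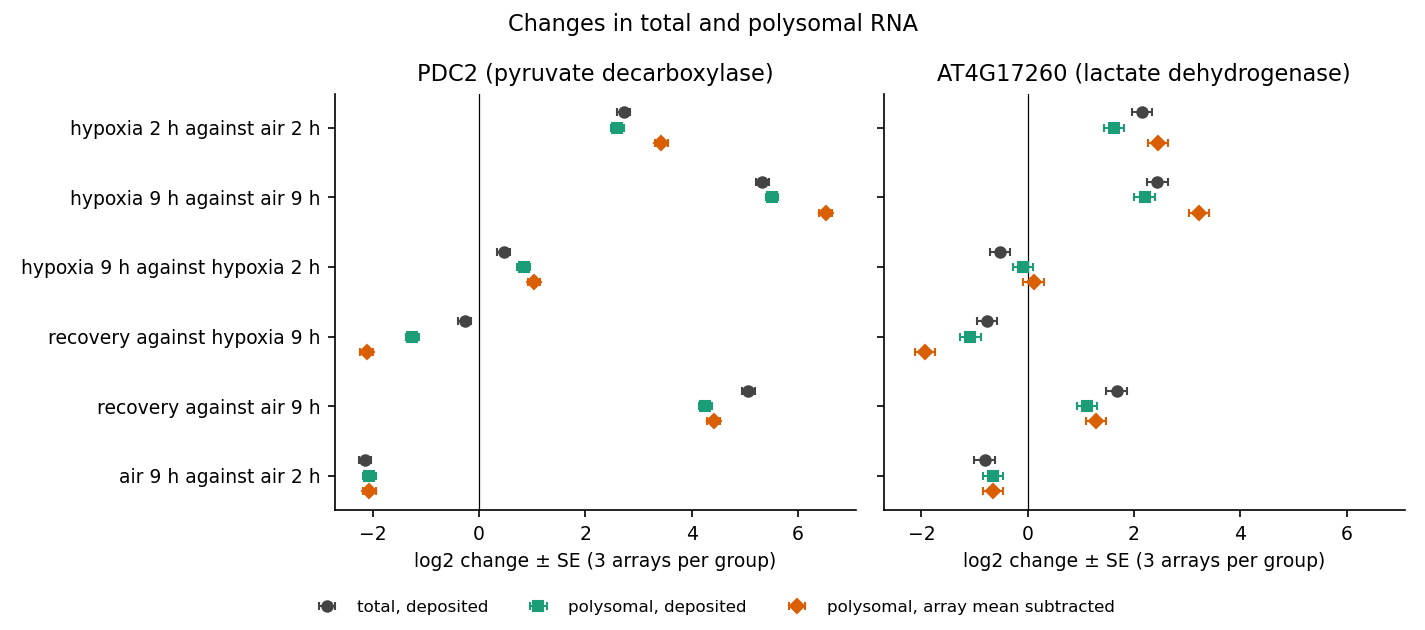
Log2 change with its SE (horizontal axis; 3 arrays per group) of PDC2 (left) and AT4G17260 (right) in 6 comparisons (vertical axis), for total RNA as deposited (grey circles), polysomal RNA as deposited (green squares) and polysomal RNA with array means subtracted (orange diamonds). In recovery against 9 h of hypoxia PDC2 is at -0.27 in total RNA and at -1.25 (deposited) or -2.11 (array means subtracted) in polysomal RNA.

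Whether a message changed its presence on polysomes beyond its change in amount was read as the polysomal change minus the total change. During hypoxia the typical probe set lost polysomal signal as deposited, with a median over all probe sets of -0.82 at 2 h and -0.98 at 9 h. For PDC2 the deposited difference was -0.12 ± 0.171 at 2 h (adjusted p = 0.513; 95% interval -0.47 to 0.23) and 0.18 ± 0.171 at 9 h (adjusted p = 0.327; 95% interval -0.17 to 0.53). In these comparisons 82.9% and 87% of all probe sets passed downward. With array means subtracted PDC2 passed upward, at 0.70 (adjusted p = 0.0059; 7.38% passed upward) and 1.18 (adjusted p = 1.5e-05; 11.5% upward). For AT4G17260 the deposited difference was -0.52 ± 0.272 at 2 h (adjusted p = 0.0765, or 0.00623 with the replicate number as a block) and -0.24 ± 0.272 at 9 h (adjusted p = 0.406; SE from 3 arrays in each of 4 groups). With array means subtracted it was 0.29 (adjusted p = 0.566) and 0.76 (adjusted p = 0.0391), and the 9 h value did not pass with array medians subtracted or after quantile normalization. As deposited and without a block, none of these 4 differences passed, so the signs of the deposited estimates are not established. The estimate of PDC2 at 9 h was above 0 on both scales and passed only with array means subtracted. The other 3 estimates changed sign when the overall level of the polysomal arrays was removed. Whether that level holds a true difference in polysome content was not tested.

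On reoxygenation PDC2 lost polysomal signal beyond its change in total RNA on both scales. The difference was -0.99 ± 0.171 as deposited (adjusted p = 1.38e-05; SE from 3 arrays in each of 4 groups), where the median of all probe sets was 0.83 and 0.576% of them passed downward. With array means subtracted it was -1.83 (adjusted p = 7.2e-08; 10.8% passed downward). On either scale it was the 7th largest difference downward among 22746 probe sets. For AT4G17260 the deposited difference was -0.31 ± 0.272 (adjusted p = 0.286; 95% interval -0.87 to 0.25), and -1.15 with array means subtracted (adjusted p = 0.00232). Against the 9 h air control, where the median of all probe sets was -0.17, recovered seedlings had a polysomal change of PDC2 below its total change by -0.81 ± 0.171 (adjusted p = 0.00944; 1.43% passed downward), and the call was lost with array means subtracted (-0.65, adjusted p = 0.0549; 0.317% downward) and when replicate 1, 2 or 3 was left out of every group (adjusted p 0.0913, 0.109 and 0.113). AT4G17260 was at -0.55 ± 0.272 (adjusted p = 0.262, or 0.0454 with the replicate number within each RNA pool as a block).

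**Figure D3:**
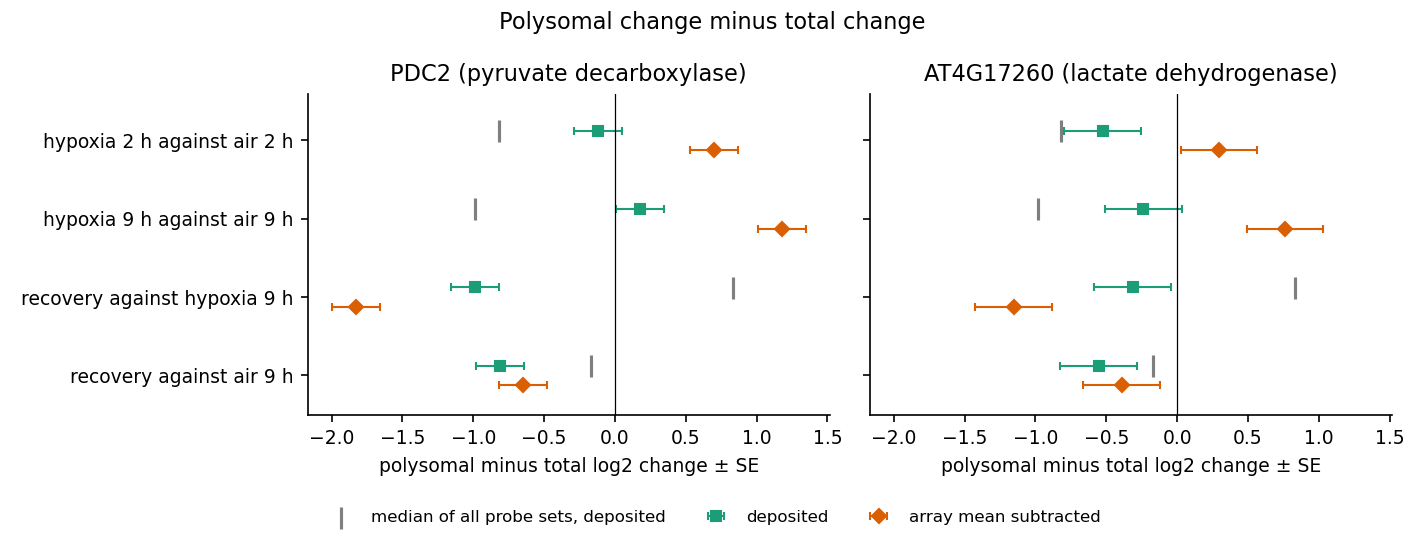
Polysomal log2 change minus total log2 change with its SE (horizontal axis; 3 arrays in each of 4 groups) for PDC2 (left) and AT4G17260 (right) in 4 comparisons (vertical axis), as deposited (green squares) and with array means subtracted (orange diamonds). Grey ticks are the deposited median of all probe sets. In recovery against hypoxia PDC2 lies at -0.99 while the median of all probe sets lies at 0.83.

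The signals of the 2 genes were also set against each other within each array, since a shift of a whole array cancels in their log2 difference; only its change between groups is read. After 9 h of hypoxia against air, the PDC2 signal relative to AT4G17260 was higher by 2.90 in total RNA and by 3.31 in polysomal RNA, and after 2 h by 0.57 and 0.98. The arrays did not overlap in these 4 comparisons, and how often this holds for other pairs of genes was not counted. Between the air controls, 9 h against 2 h, it was lower, with a change of -1.33 in total RNA and -1.41 in polysomal RNA. On recovery against 9 h of hypoxia it changed by 0.50 in total RNA and by -0.18 in polysomal RNA, where the arrays overlapped. With 3 arrays against 3 the exact two-sided permutation test cannot go below 0.1. The comparison of the air controls with each other was not tested in either pool. Of the other 10 comparisons, 9 reached this value (0.111 adjusted over the 10), and polysomal recovery against hypoxia had an exact p of 0.4. Those against air hold the PDC2 air values named in the choice of genes, so they are not independent of it. None could pass the threshold in this design.

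The spread of AT4G17260 followed the replicate experiment. The array of replicate 1 was the lowest of its group in 10 of 10 groups, total and polysomal, with a mean deviation from the group mean of -0.24 (from -0.50 to -0.14), while replicate 2 averaged 0.10 and replicate 3 averaged 0.14. PDC2 showed mean deviations of -0.03, -0.03 and 0.07, and its replicate 1 was lowest in 3 groups. A term for the replicate number, added after these values were seen, passed for AT4G17260 (limma F test, adjusted p = 0.000646) and not for PDC2 (adjusted p = 0.433), and it passed for 12.5% of all probe sets. With this term the residual standard deviation of AT4G17260 was 0.147, against 0.253 without it. For PDC2 it was 0.142 with the term and 0.147 without.

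**Figure D4:**
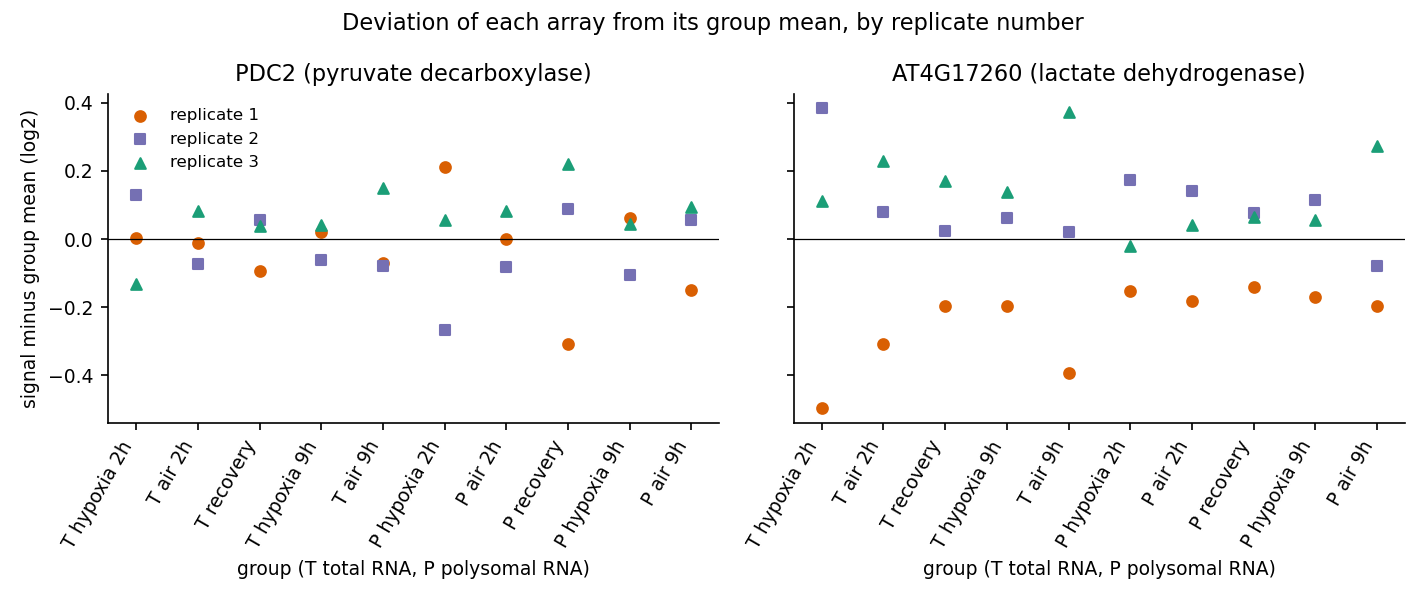
Deviation of each array's log2 signal from its group mean (vertical axis) in the 10 groups (horizontal axis; T total RNA, P polysomal RNA), for PDC2 (left) and AT4G17260 (right). Points are single arrays, marked by replicate number. For AT4G17260 replicate 1 (orange) lies between -0.50 and -0.14 in every group.

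Of 36 further genes listed around pyruvate, 7 could be named. They were AT5G06580 (a mitochondrial D-lactate dehydrogenase), ALDH2C4 (a cytosolic aldehyde dehydrogenase), ACS (acetyl-CoA synthetase, which activates acetate), MAB1 (the E1 beta subunit of mitochondrial pyruvate dehydrogenase) and the acetyltransferase genes LTA3, AT3G13930 and AT1G54220 of the pyruvate dehydrogenase complex. In total RNA after 2 h of hypoxia 0 of 7 passed the limma test in either direction, with a median of -0.17 against -0.01 for all probe sets; the unadjusted p was under 0.05 for 3 of them, and 20.7% of all probe sets passed. After 9 h 1 rose and 4 fell (median -0.23, all probe sets 0.03; 21.3% of probe sets rose and 24.5% fell). AT5G06580 rose by 0.73 ± 0.158 (adjusted p = 0.000351). ACS fell by 1.15 ± 0.117 (adjusted p = 7.64e-09), AT3G13930 by 0.52 ± 0.112 (adjusted p = 0.000392), LTA3 by 0.44 ± 0.143 (adjusted p = 0.0129) and MAB1 by 0.23 ± 0.088 (adjusted p = 0.0378; SE, n = 3 arrays per group). On recovery against 9 h of hypoxia AT5G06580 fell by 0.50 and AT1G54220 by 0.69 (adjusted p = 0.0228 and 0.00114; 9.65% of all probe sets fell), with a median of 0.03 over the 7 and -0.04 over all probe sets.

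On polysomes the same 7 genes depended on the scale. After 9 h of hypoxia 2 rose and 5 fell as deposited (median -0.77, all probe sets -0.97; 4.53% of probe sets rose and 88.8% fell), and 2 rose and 1 fell with array means subtracted (median 0.25, all probe sets 0.05; 22.6% of probe sets rose and 25.3% fell). AT5G06580 rose on both scales (0.40 and 1.42, adjusted p = 0.0186 and 2.62e-08), as did AT1G54220 (0.33 and 1.34, adjusted p = 0.0393 and 2.56e-08), and ACS fell on both (-1.76 and -0.74, adjusted p = 5.96e-13 and 5.34e-06). Between the air controls in total RNA only ALDH2C4 of the 7 passed, with a fall of 0.59 ± 0.145 (adjusted p = 0.0095; SE, n = 3 arrays per group), where 4.24% of all probe sets fell.

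**Figure D5:**
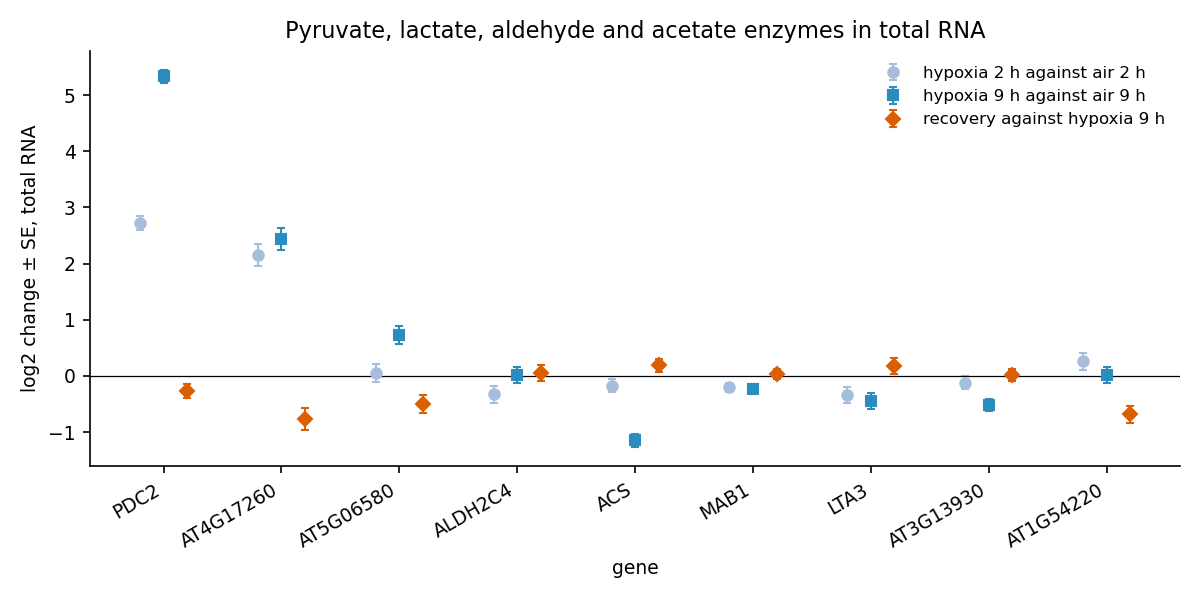
Log2 change in total RNA with its SE (vertical axis; 3 arrays per group) of PDC2, AT4G17260 and the 7 further nameable enzymes of pyruvate, lactate, aldehyde and acetate metabolism (horizontal axis), for 2 h hypoxia against air, 9 h hypoxia against air and recovery against 9 h hypoxia. The 9 h values run from -1.15 for ACS to 5.33 for PDC2.

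Across the 10 group means with array means subtracted, PDC2 and AT4G17260 had a Pearson correlation of 0.881; the points share arrays, and total and polysomal groups share experiments. The genes most like PDC2 among 5697 nameable probe sets that spanned at least 1 log2 unit were AT1G69840 (r = 0.967), AT3G22060 (0.966), AT2G18690 (0.961), AT5G18490 (0.957) and AT5G38510 (0.955). Despite these correlations, their estimated changes differed in size from those of PDC2, and some in sign. These differences were not tested. Their rises in total RNA at 9 h lay between 1.25 and 2.72, against 5.33 for PDC2. On recovery against 9 h of hypoxia the estimates for AT1G69840 and AT2G18690 were 0.48 and 0.10 in total RNA. That of PDC2 was -0.27 and had not passed the threshold. AT3G22060, AT5G18490 and AT5G38510 changed by -0.47, -0.43 and -0.58. The genes most like AT4G17260 were AT1G61260 (0.983), AT4G33560 (0.982), AT5G66985 (0.981), AT4G31760 (0.979) and AT3G23170 (0.976). AT5G66985 was the closest to AT4G17260 by rank correlation, on deposited values and over the 30 single arrays as well, and changed by 4.29 at 2 h, 4.74 at 9 h and -2.47 on recovery in total RNA. Of the 5 genes most like PDC2, 0 were among the first 5 by rank correlation, 1 on deposited values and 2 over the 30 arrays, so the choice of neighbours depends on the measure.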

How the data were processed

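Total and immunopurified polysomal RNA of 5 conditions were measured on 30 Affymetrix arrays, 3 per group. The deposited values are log2 probe set signals made by the authors with RMA, per the submitters' processing notes, and the sources used here do not say which arrays were normalized together. The arrays hold 22810 probe sets; 22746 were tested without a filter after removal of the 64 controls. The annotation gave 1 gene for 13513 probe sets, several for 503 and none for 8730. A model with 1 mean per group was fitted to all arrays with limma 3.58.1 in R 4.3.3 (20 residual degrees of freedom), with Benjamini-Hochberg adjustment in each comparison and a threshold of 0.05. It was tested on simulated data with independent noise on each array and known changes added to the total RNA group of 2 h hypoxia. The simulation held no replicate effect and no shift of whole arrays, so it does not check the model for these. Polysomal changes were also computed after subtracting each array's mean. The number of arrays limits the precision. The replicates were independent biological experiments.

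The genes, the list of 36 pathway genes and the comparisons were chosen with earlier results of these data known. Named were PDC2 and AT4G17260 throughout, each listed gene with a probe set of 1 gene (by value where it passed), and the 5 genes most like each by Pearson correlation over the 10 group means, among those spanning at least 1 log2 unit. PDC1 and ADH1 were not analysed here. Same-numbered arrays deviated together (every pair above a correlation of 0.1) in most of the 2-group comparisons, from 0.13 to 0.47 for total RNA at 2 h of hypoxia; pairing rests on the numbers in the labels and on this check. Alternatives were other scalings, fewer arrays in the fit, a replicate block, a filter on dim probe sets, and leaving out arrays.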

Additional observations from a re-analysis of the deposited data

Results flagged for a closer look

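The change of PDC2 against air differed in size between the 2 times, and this is given without a test. It was larger at 9 h than at 2 h by 2.61 in total RNA and by 2.91 in polysomal RNA. The difference between the air controls, named in the choice of genes, is part of both values. Between the hypoxic groups alone, PDC2 was higher at 9 h by 0.46 in total RNA and by 0.84 in polysomal RNA as deposited.

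The changes of PDC2 in the 2 RNA pools differed after recovery. Its polysomal change minus its total change was -0.99 against 9 h of hypoxia and -0.81 against air at 9 h, by limma's test of the difference itself (adjusted p = 1.38e-05 and 0.00944). The second was not past the threshold with array means subtracted (-0.65, adjusted p = 0.0549).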

How the results depend on the processing

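Of 742 repeats under other settings, 685 kept their side of the threshold with no called value reversed, or stayed within the replicate spread where there was no test. The cause of the others was not tested. With array medians subtracted, PDC2 in total RNA at recovery against 9 h of hypoxia was -0.38 (adjusted p = 0.0254), and -0.27 with the total arrays alone (adjusted p = 0.0482). AT4G17260 at 9 h against 2 h of hypoxia in total RNA was -0.38 with medians subtracted (adjusted p = 0.103) and -0.52 with only the groups compared (adjusted p = 0.104) or only total arrays (adjusted p = 0.0816). Its polysomal 9 h change minus 2 h change passed at 0.76 with means and 0.83 with medians subtracted, and at 0.57 with polysomal arrays alone (adjusted p = 0.0496), with the replicate block (adjusted p = 0.0122) and with that block within each RNA pool (adjusted p = 0.00807). For polysomal minus total change, with means subtracted, medians subtracted and quantile normalization, PDC2 reversed at 2 h (0.70, 0.68 and 0.73) and passed at 9 h (1.18, 1.13 and 1.08), and AT4G17260 passed at recovery against hypoxia (-1.15, -1.11 and -1.10); at 9 h AT4G17260 reversed to 0.76 with means subtracted. PDC2 at recovery against air was -0.65 with means and -0.66 with medians subtracted (adjusted p = 0.0549 and 0.0602). With the replicate block, AT4G17260 was -0.52 at 2 h of hypoxia (adjusted p = 0.00623, or 0.00413 within each pool), and at recovery against air it was -0.55 with the block within each pool (adjusted p = 0.0454); the block changed no other call.

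Leaving out arrays gave these ranges. For AT4G17260 in total RNA they were -0.86 to -0.67 at recovery against hypoxia, -0.77 to -0.33 between the hypoxic groups and -0.996 to -0.614 between the air controls, and -0.79 to -0.55 between the air controls in polysomal RNA, with 2, 6, 4 and 6 of 9 calls lost. For PDC2 between the hypoxic groups in total RNA the range was 0.38 to 0.56 with 1 call lost. For polysomal minus total change it was -0.77 to -0.33 for AT4G17260 at 2 h, with 3 calls gained, and -0.93 to -0.66 for PDC2 at recovery against air, with 3 lost; for PDC2 at 2 h it was -0.23 to 0.07. The within-array difference at polysomal recovery against air ran from 2.97 (without replicate 3) to 3.24. Without replicate 3, 1913 probe sets passed at 2 h of hypoxia in total RNA, against 4709 with it. On polysomes 7578 passed at 2 h with means subtracted, against 20665 as deposited.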
